A study of Mus musculus with 8 samples.

Results

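The genes described here encode 10 antioxidant enzymes of the mouse, namely the peroxiredoxins Prdx1, Prdx2, Prdx3 and Prdx5, thioredoxin (Txn1), the glutathione peroxidases Gpx1 and Gpx4, the superoxide dismutases Sod1 and Sod2, and catalase (Cat). They were chosen by name and family, not by their values, as 10 of the 33435 named genes in a table of raw read counts. All 10 passed the filter on low counts, which left 11040 genes to test. The cells were hematopoietic stem and progenitor cells of C57BL/6J fetal livers at E14.5, infected either with Trim27 virus (Trim27 is a ubiquitin ligase of the tripartite motif family) or with GFP control virus. Myeloid progenitors were sorted from them. Polyadenylated RNA was sequenced in 4 libraries per group. Both groups were infected and sorted alike, and the 8 libraries hold no group without virus. The promoter of the virus, the sort gate and the time between infection and sorting were not given in the sources used here. No separate animals or cultures are named in the labels for the 4 libraries within each group, so p-values measure the spread between these libraries only, which may be technical.

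Superoxide, made mostly by the respiratory chain and by NADPH oxidases, is turned into hydrogen peroxide by superoxide dismutases, Sod1 in the cytosol and Sod2 in the mitochondrial matrix. Hydrogen peroxide is then removed by catalase in peroxisomes, by glutathione peroxidases at the expense of glutathione, and by peroxiredoxins, which are reduced again by thioredoxin. In the blood lineages these enzymes are known above all from red cell precursors, which carry large amounts of Prdx2, Gpx1, Sod1 and catalase, and from granulocytes, whose oxidase makes superoxide to kill microbes.

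The peroxiredoxins, thioredoxin and glutathione peroxidases share chemistry that can be read in their coding sequences, and these stretches are shown because they separate the families compared below. They were read from GENCODE M21 transcripts of the build GRCm38, 5′ to 3′. Capitals mark the codon of the cysteine that attacks the peroxide in a peroxiredoxin (codon 52 of Prdx1, 51 of Prdx2, 109 of Prdx3 and 96 of Prdx5), the active-site cysteine codons 32 and 35 of thioredoxin, and the selenocysteine codon of the glutathione peroxidases (codon 47 of Gpx1 and 73 of Gpx4).
Prdx1: tttacttttgtgTGTcccacggagatc
Prdx2: ttcacttttgttTGCcccacggagatc
Prdx3: ttcacatttgtgTGTcctacagaaatt
Prdx5: tttacacctggcTGTtctaagacccac
Txn1: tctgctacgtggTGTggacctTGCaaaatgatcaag
Gpx1: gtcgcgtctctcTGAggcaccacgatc
Gpx4: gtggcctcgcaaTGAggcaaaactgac
In the glutathione peroxidases the capitals read TGA, which ends translation in most messenger RNAs and is read as selenocysteine in these. Over their aligned coding bases, Prdx1 and Prdx2 were 70.02% identical, Prdx1 and Prdx3 66.3%, and Prdx2 and Prdx3 63.6%. Gpx1 and Gpx4 shared 54.8% and Sod1 and Sod2, which belong to unrelated families, 57.2% of the bases that could be aligned.

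Most of these enzymes had less RNA in the Trim27 libraries. Prdx2, Gpx1, Gpx4, Sod1, Prdx5, Txn1 and, by a small margin, Prdx1 fell, Prdx3 rose, and Sod2 and Cat did not pass the test (edgeR's quasi-likelihood test, Benjamini-Hochberg adjustment over 11040 genes, threshold 0.05 on the adjusted p). The summed level of the 10 genes was 13123 ± 104 CPM in the GFP group (SD, n = 4) against 8119 ± 275 CPM in the Trim27 group (SD, n = 4), CPM being counts scaled to the size of their library by TMM. The lowest GFP library was at 12992 and the highest Trim27 library at 8405, so the groups did not overlap. Gpx1 alone made up much of that sum, and the other 9 genes together stood at 6731 ± 65.9 and 4303 ± 79.6 CPM. As a share of all counts, the 10 genes took 1.18% ± 0.00658 in the GFP group against 0.902% ± 0.0201 in the Trim27 group.

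These counts stand against a transcriptome in which most genes differed. Of all genes tested, 85.5% passed the threshold, 47.5% as rises and 38% as falls, and 80.7% had groups that did not overlap. Of the 10 enzymes, 8 passed, 1 as a rise and 7 as falls, and 7 had groups that did not overlap. That 8 of 10 passed is therefore close to the background, while falls took a larger part of the enzymes' calls than of all calls. The median log2 fold change was -0.42 for the 10 enzymes and 0.14 for all genes. Scaling by library size alone moved these medians to -0.11 and 0.44. A change of scaling shifts all genes nearly alike, so it cannot test the gap between the medians.

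**Figure D1:**
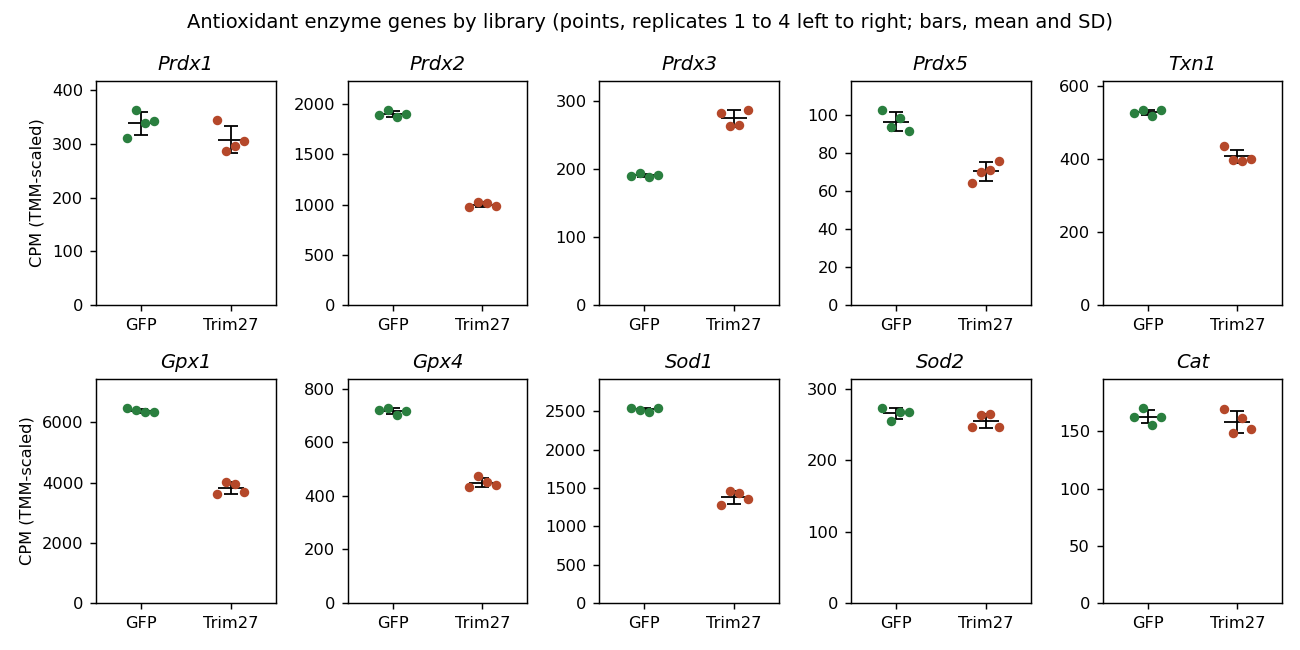
Level of each of the 10 enzyme genes in each library, in CPM scaled by TMM on a linear axis from 0, with 4 GFP libraries in green and 4 Trim27 libraries in red; points are libraries in the order of their replicate numbers and bars are the mean and SD. Every Trim27 library lies below every GFP library for Prdx2, Prdx5, Txn1, Gpx1, Gpx4 and Sod1 and above them for Prdx3, and the groups overlap for Prdx1, Sod2 and Cat.

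Of the superoxide dismutases, Sod1 fell and Sod2 did not pass the test. Sod1, the copper and zinc enzyme of the cytosol (GRCm38 chr16:90220754-90226329, plus strand), stood at 2545, 2522, 2498 and 2545 CPM in GFP replicates 1 to 4 and at 1276, 1461, 1430 and 1350 CPM in Trim27 replicates 1 to 4. The GFP libraries lay within a narrow band and all 4 Trim27 libraries lay far below it. On the log2 scale Sod1 fell by 0.87 (SE 0.045, adjusted p = 6.06e-17), to 54.6% of the GFP level. Sod2, the manganese enzyme of mitochondria (chr17:13006846-13040063, plus strand), had 274, 255, 268 and 267 CPM in the GFP libraries and 247, 263, 265 and 247 CPM in the Trim27 libraries. Both groups covered nearly the same range, and the log2 difference was -0.058 (95% interval -0.15 to 0.037, adjusted p = 0.266). Sod2 was called a rise under library size alone (0.24, adjusted p = 1.67e-05) and among genes of at least 6 log2 CPM alone (0.17, adjusted p = 0.000844). With each library's trend on transcript length removed it was called a fall of -0.84 (adjusted p = 1.29e-15), larger than that of Sod1 under the same setting (-0.35). With the length trend fitted on abundant genes removed, Sod1 was at -0.094 and Sod2 at -0.075, so the gap between the dismutases depends on how transcript length is treated.

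Ccs, the chaperone that loads copper onto Sod1, fell from 70.5 ± 5.18 to 39.4 ± 4.93 CPM (-0.83, SE 0.084, adjusted p = 2.17e-10). Atox1, a copper chaperone that delivers the metal to export pumps, fell from 379 ± 21.2 to 187 ± 7.54 CPM (-1.02, adjusted p = 4.17e-17). The copper importer Slc31a1 rose from 6.29 ± 0.776 to 32.7 ± 0.933 CPM (2.38, adjusted p = 5.72e-17). Of the 3 tested genes in the list of dismutase maturation and the extracellular form, 1 rose and 2 fell. Sod3, the extracellular dismutase, was not tested, being at 0 counts in the GFP libraries and at 65 in all over the Trim27 libraries.

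Sod1 reads can be split with a processed copy of the gene, Gm8566, which matched it at 97.8% over 465 bases. Gm8566 held 6.00% ± 0.660 of the counts of the pair in the GFP group against 6.32% ± 0.1003 in the Trim27 group. With the counts of the copy added to Sod1, an alternative chosen after seeing the data, the log2 fold change was again -0.87 (adjusted p = 6.31e-17). Other enzymes have close copies too. Gpx4-ps2 matched Gpx4 at 99.7% over 733 bases, and Tdpx-ps1 matched Prdx2 at 96.3% over 597. Gm21399 and Gm7204 matched Prdx1 at 98.3% and 97.5% over 597 bases. Among these copies only Gm7204 had counts listed. The levels of Gpx4, Prdx1 and Prdx2 thus carry a like limit.

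Among the enzymes that remove hydrogen peroxide, the glutathione peroxidases fell and catalase did not pass the test. Gpx1, the abundant peroxidase of cytosol and mitochondria (chr9:108338903-108340343, plus strand), was the most abundant of the 10 in both groups, and its rank by mean CPM among the tested genes was 13 in the GFP group against 16 in the Trim27 group. Its levels were 6481, 6401, 6349 and 6335 CPM in the GFP libraries and 3616, 4012, 3952 and 3682 CPM in the Trim27 libraries. The Trim27 libraries were all well below the GFP libraries and varied more among themselves, with a coefficient of variation of 5.13% against 1.04%. Gpx1 fell by 0.74 on the log2 scale (SE 0.042, adjusted p = 5.72e-16). Gpx4, which reduces peroxides of membrane lipids and guards against ferroptosis (chr10:80047166-80056439, plus strand), had 722, 729, 704 and 716 CPM in the GFP libraries and 434, 473, 450 and 441 CPM in the Trim27 libraries. Here too no libraries overlapped, and the gene fell by 0.67 (SE 0.045, adjusted p = 2.21e-14), to 62.6% of the GFP level.

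Cat, the peroxisomal catalase (chr2:103453849-103485160, minus strand), had 163, 171, 156 and 163 CPM in the GFP libraries and 169.9, 149, 162 and 152 CPM in the Trim27 libraries. The groups were interleaved, and the log2 difference was -0.043 (95% interval -0.15 to 0.064, adjusted p = 0.465). It was 0.26 under library size alone (adjusted p = 8.4e-05) and -0.44 with each library's trend on transcript length removed (adjusted p = 1.48e-08), so the absence of a call rests on the scaling. Without Trim27 replicate 1, the highest of its group, Cat was called a fall at -0.11.

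The peroxiredoxins did not move together. Prdx2, the cytosolic form that is abundant in red cell precursors (chr8:84969587-84974834, plus strand), had the largest fall of the 10, from 1896, 1939, 1873 and 1903 CPM in the GFP libraries to 976, 1029, 1012 and 985 CPM in the Trim27 libraries. The groups were far apart and each was tight, and the log2 fold change was -0.93 (SE 0.042, adjusted p = 2.79e-18). Prdx1, a cytosolic form that shares its mechanism with Prdx2 (chr4:116685544-116700822, plus strand), had 309.8, 362, 339 and 342 CPM in the GFP libraries and 343, 286, 296 and 305 CPM in the Trim27 libraries. The highest Trim27 library, replicate 1, exceeded 3 of the GFP libraries, and GFP replicate 1 was the lowest of its group. The difference was -0.14 (SE 0.056, adjusted p = 0.0263), which turned to a positive value in 3 other settings of the analysis. The call was lost, with the value still negative, in 6 further settings, and also by glmTreat at 1.5-fold and at an adjusted p under 0.01. It was also lost without GFP replicate 2 (-0.10), 3 (-0.14) or 4 (-0.13).

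Prdx3, the peroxiredoxin of the mitochondrial matrix (chr19:60864051-60874556, minus strand), was the 1 enzyme that rose. It had 189.95, 194, 188 and 190.4 CPM in the GFP libraries and 282, 263, 265 and 286 CPM in the Trim27 libraries. All Trim27 libraries stood above all GFP libraries, and the log2 fold change was 0.52 (SE 0.049, adjusted p = 5.77e-11), or 144% of the GFP level. Prdx5, found in mitochondria, peroxisomes and cytosol (chr19:6906697-6910106, minus strand), had 102, 93.6, 98.2 and 91.4 CPM in the GFP libraries and 64.1, 69.7, 71.2 and 75.99 CPM in the Trim27 libraries. It was lower in all Trim27 libraries and fell by 0.46 on the log2 scale (SE 0.065, adjusted p = 1.92e-07).

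Part of the Prdx5 count may belong to a neighbour. Its exons share 409 bases with Trmt112 on the opposite strand, 19.1% of the bases of its exons, and the strand setting of the counting was not given in the sources used here. Trmt112, which activates methyltransferases, fell from 91.8 to 48.2 CPM itself (-0.93, adjusted p = 1.89e-13). Prdx2 shares 177 bases with Rnaseh2a and 173 with Junb, also on the opposite strand, and both neighbours were far lower in counts than Prdx2.

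Txn1, which carries electrons from thioredoxin reductase to the peroxiredoxins (chr4:57943373-57956411, minus strand), had 528, 535, 520 and 534 CPM in the GFP libraries and 436, 398, 396 and 402 CPM in the Trim27 libraries. Trim27 replicate 1 stood above the rest of its group, yet below all GFP libraries. Txn1 fell by 0.37 on the log2 scale (SE 0.046, adjusted p = 1.42e-08), but the value was -0.071 under library size alone (adjusted p = 0.141) and 0.092 with the length trend fitted on abundant genes removed (adjusted p = 0.0574).

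Levels can be compared between genes once divided by transcript length, as CPM per kilobase (RPKM, from principal GENCODE transcripts). In the GFP group the order was Gpx1 at 5962 RPKM, Sod1 at 3943, Prdx2 at 1232, Gpx4 at 748, Txn1 at 503, Prdx1 at 213, Prdx3 at 129, Prdx5 at 76.4, Cat at 62.4 and Sod2 at 45.4. No neighbours in that order overlapped over the 4 libraries. In the Trim27 group the RPKM values were 3559, 2152, 648, 469 and 388 for Gpx1, Sod1, Prdx2, Gpx4 and Txn1, followed by 194 for Prdx1, 185 for Prdx3, 60.5 for Cat, 55.7 for Prdx5 and 43.6 for Sod2. Prdx1 and Prdx3 were then no longer apart (181 to 217 against 178 to 194 RPKM), and neither were Cat and Prdx5 (56.9 to 65.0 against 50.8 to 60.2 RPKM). The order of the first 7 was thus the same in both groups, and Cat and Prdx5 changed places without a difference beyond their spread. The transcript length of Prdx1 is uncertain, since its principal transcripts measure 877 and 2294 bases and the median of 1585.5 was used.

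Ratios of a pair of enzymes within each library need no scaling between libraries, and 6 of them were compared by an exact permutation test over the 8 libraries, 2-sided. With 4 libraries against 4 the smallest p is 0.0286, or 0.0343 after Benjamini-Hochberg adjustment over the 6 ratios when 5 of them reach it. Since 80.7% of all tested genes had groups that did not overlap, many other pairs may reach it as well. How many do was not tested, so this p does not set these pairs apart. The ratio of Sod1 to Sod2 counts fell from 9.50 to 5.39 (log2 difference -0.82, exact p = 0.0286, adjusted 0.0343). The 4 GFP libraries lay between 9.30 and 9.88 and the 4 Trim27 libraries between 5.17 and 5.55. Prdx1 rose against Prdx2, from 0.177 to 0.307 (log2 difference 0.79), and Prdx3 against Prdx5, from 1.98 to 3.90 (0.98), both at the same exact p. Cat rose against Gpx1, from 0.0255 to 0.0414 (0.70), again at that p. A single scaling factor per library cancels in these ratios, but a correction for transcript length does not. With each library's length trend removed, Cat was at -0.44 and Gpx1 at -0.53, and the order of Sod1 and Sod2 turned, as given above.

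Gpx1 and Gpx4, by contrast, changed nearly in step. The ratio of their counts was 8.91 in the GFP group against 8.48 in the Trim27 group, a log2 difference of -0.070 at exact p = 0.0286, and the libraries lay between 8.78 and 9.02 and between 8.33 and 8.78. Txn1 against the mitochondrial thioredoxin Txn2 gave 0.439 and 0.480, a log2 difference of 0.13 that was within the spread (exact p = 0.143, adjusted 0.143). Some of these pairs differ in transcript length, which is 641 bases for Sod1 and 5861 for Sod2, and the ratios above are not corrected for it.

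**Figure D2:**
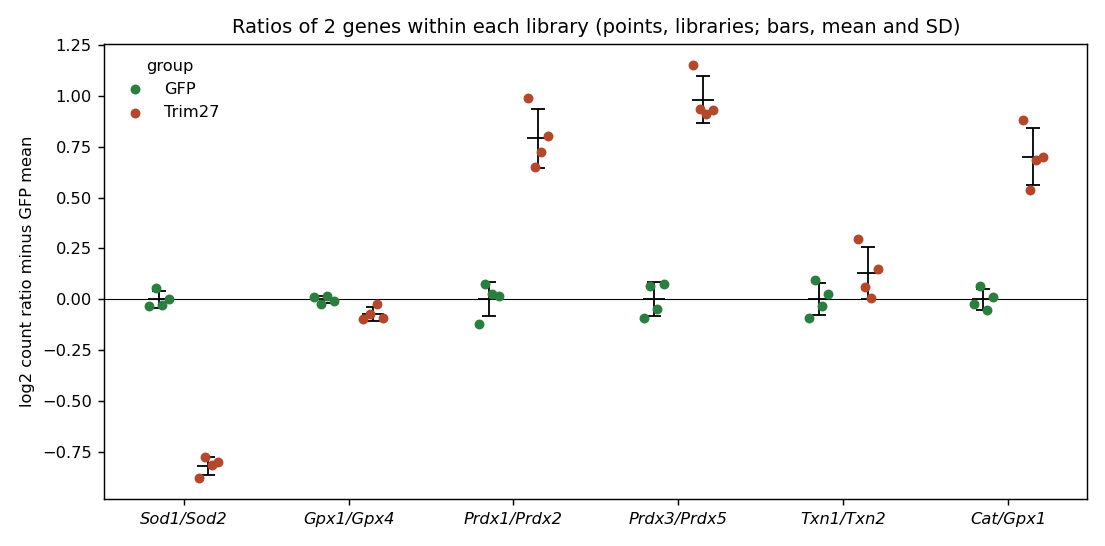
Log2 ratio of the counts of 6 pairs of genes within each library, minus the mean of the GFP libraries, so that 0 is the GFP mean; points are libraries (GFP green, Trim27 red, 4 each) and bars are the mean and SD. Trim27 libraries sit 0.82 below the GFP mean for Sod1/Sod2 and 0.70 to 0.98 above it for Prdx1/Prdx2, Prdx3/Prdx5 and Cat/Gpx1, and within 0.13 of it on average for Gpx1/Gpx4 and Txn1/Txn2.

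The enzymes are abundant and mostly short transcripts, and abundant and short transcripts as a whole were lower in the Trim27 libraries. The median log2 fold change over all genes was 1.91 below 2 mean log2 CPM, 0.65 between 2 and 4 and 0.12 between 4 and 6. The upper quartiles of these ranges were 5.53, 3.10 and 0.957. Above them the median was -0.17 between 6 and 8 mean log2 CPM, -0.32 between 8 and 10, -0.60 between 10 and 12 and -0.64 above that. Genes near 0 in 1 group can pass the filter on low counts through the other group. The Trim27 libraries held more counts on average (14225800 against 10071500) and more genes with counts (13161 against 11436). The part of this in the medians below 6 mean log2 CPM, and in the median and shares over all genes, was not tested. Among the 2642 genes at or above 6 mean log2 CPM, which include all 10 enzymes, 30.8% rose and 56.3% fell, with a median of -0.23. Among the 1310 of these with transcripts of 500 to 2000 bases, the range that holds 8 of the 10 enzymes, 21.4% rose and 67% fell, with a median of -0.39. The median of -0.42 over the 10 enzymes is not a like comparison with it, since Sod2 (-0.058) and Cat (-0.043) have longer transcripts. Of the 8 enzymes in that range, Prdx2, Sod1, Gpx1, Gpx4 and Prdx5 lay below -0.39. Txn1, Prdx1 and Prdx3 lay above it.

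Within 1 log2 unit of each enzyme's own mean level, the enzymes took places from low to high. Prdx2 lay above 23.9% of the genes around it, Sod1 above 28%, Gpx4 above 29.3%, Prdx5 above 33%, Gpx1 above 40.5% and Txn1 above 45.3%. Prdx1 (58.8%), Cat (59.5%) and Sod2 (62.9%) were past the middle of genes of their own abundance, and Prdx3 lay above 89%.

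**Figure D3:**
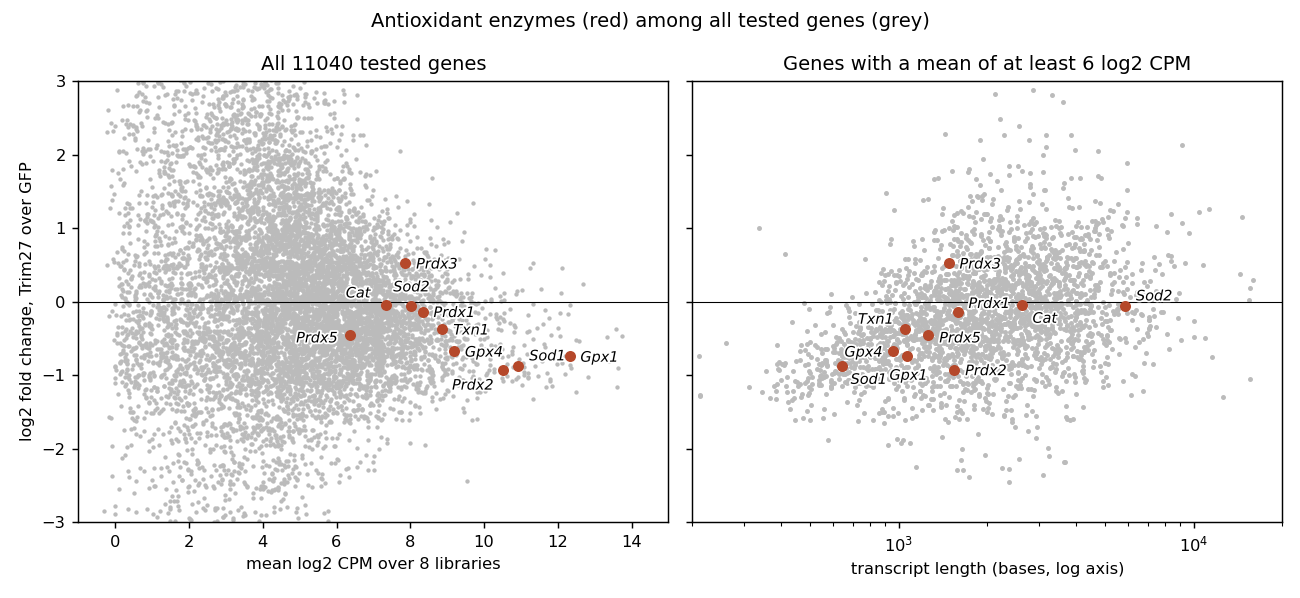
Log2 fold change of Trim27 over GFP for single genes, against the mean log2 CPM over 8 libraries for all 11040 tested genes (left) and against transcript length on a log axis for genes at or above 6 mean log2 CPM (right); grey points are all genes, red points the 10 enzymes, and points beyond 3 in either direction are not shown. The grey cloud bends downward at high abundance and at short length, and the enzymes lie inside it, with Prdx3 near its upper side and Prdx2 and Sod1 toward its lower side.

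The genes nearest to each enzyme in profile were found among genes within 1 log2 unit of its mean level, by the root mean square distance between log2 CPM profiles over the 8 libraries, each centred on its mean. Gpx1 lay nearest to Rps9, a protein of the small ribosomal subunit (0.023). Sod1 lay nearest to Cox4i1, a subunit of cytochrome oxidase (0.024), and Sod2 to Atp5g2, a subunit of ATP synthase (0.029). Tmem70 lay nearest to Prdx1, Rtn3 to Prdx3, Rnf114 to Prdx5, Swi5 to Txn1 and Cwc15 to Cat, at distances of 0.026 to 0.043. Cytosolic ribosomal protein genes as a group took 26.9% ± 0.0609 of all counts in the GFP libraries against 19.0% ± 0.356 in the Trim27 libraries.

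**Figure D4:**
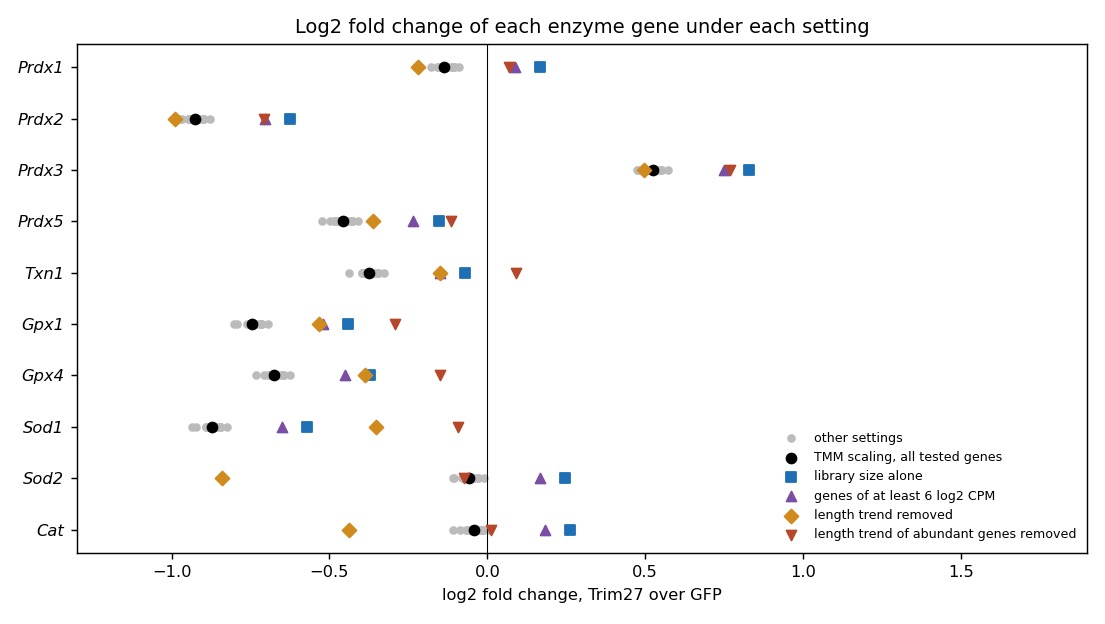
Log2 fold change of Trim27 over GFP for each of the 10 enzymes (rows) under each setting that was run; black circles are the values given in the text, grey points are the settings not named in the key, and coloured symbols are the 4 settings that moved values most. Prdx2, Gpx1, Gpx4 and Sod1 stay below 0 and Prdx3 above 0 in all of them, whereas Prdx1, Txn1, Sod2 and Cat have values on both sides of 0.

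Prdx2, Gpx1, Gpx4 and Sod1 fell and Prdx3 rose past the threshold in every setting that was run for them, other than the demand for a fold above 1.5 (glmTreat), under which those 4 were still called falls and Prdx3 was not called (adjusted p = 0.917). Sod1 came nearest to losing its call, at -0.094 (adjusted p = 0.0256) with the length trend fitted on abundant genes removed. Prdx5 was at -0.11 (adjusted p = 0.0937) under that setting and was not called by glmTreat, and it fell in the others. Prdx1 was 0.17 under library size alone (adjusted p = 0.0115), 0.089 among genes of at least 6 log2 CPM alone (adjusted p = 0.22) and 0.070 with the length trend fitted on abundant genes removed (adjusted p = 0.291), so its direction is not settled.

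Beyond the 10 enzymes, the other genes of the peroxiredoxin and thioredoxin system were divided, with 6 rises and 8 falls among 14 tested (median log2 fold change -0.20, against 0.14 for all genes). For this and the other lists, the shares over all tested genes were 47.5% rises and 38% falls. Prdx4, the peroxiredoxin of the endoplasmic reticulum, fell from 252 ± 10.8 to 175 ± 7.38 CPM (-0.53, SE 0.051, adjusted p = 1.02e-10), but was -0.023 with the length trend fitted on abundant genes removed (adjusted p = 0.675). Txn2 fell from 1205 ± 57.1 to 849.5 ± 40.3 CPM (-0.50, adjusted p = 3.72e-11). Prdx6, the form with a single active cysteine, was called a fall from 1213 to 1076 CPM (-0.17, adjusted p = 0.000401), but rose by 0.13 under library size alone and was 0.051 among genes of at least 6 log2 CPM alone. Txnip, which binds and inhibits thioredoxin, fell from 35.3 ± 3.69 to 25.6 ± 2.66 CPM (-0.46, adjusted p = 0.000106), a call lost under library size alone (-0.15, adjusted p = 0.152).

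Of the thioredoxin reductases, 2 rose and 1 fell. Txnrd1, the cytosolic thioredoxin reductase, rose from 113 ± 3.11 to 134 ± 9.69 CPM (0.25, adjusted p = 0.000293), though it was -0.25 with the length trend removed. Txnrd2, the mitochondrial form, fell from 98.7 ± 7.54 to 80.5 ± 7.34 CPM (-0.30, adjusted p = 0.00028), and Txnrd3 rose from 9 counts over the GFP libraries to 859 over the Trim27 libraries. Srxn1, the sulfiredoxin that repairs overoxidised peroxiredoxins, rose from 83.4 ± 3.56 to 99.8 ± 2.14 CPM (0.26, adjusted p = 0.000181), though it was -0.17 with that trend removed. Txnl1, a thioredoxin-like protein of the proteasome, was higher as well (0.50, adjusted p = 1.87e-08, and -0.14 with the trend removed). Sesn1, a stress-induced sestrin, rose from 0.905 ± 1.08 to 34.9 ± 2.05 CPM (5.28, SE 0.28, adjusted p = 1.18e-12), with 32 counts over the GFP libraries and 2188 over the Trim27 libraries. Sesn1 and Txnrd3 were near the floor in the GFP group and passed the filter on low counts through the Trim27 libraries.

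In glutathione synthesis, recycling and transfer, 11 of 23 tested genes were called higher and 11 lower, and 1 did not pass (median -0.13). The synthesis steps changed in opposite directions. Gclc, the catalytic subunit of the rate-limiting ligase, rose from 3.60 ± 1.33 to 32.5 ± 2.97 CPM (3.18, SE 0.16, adjusted p = 4.92e-17). Gclc had 129 counts over the GFP libraries and 2040 over the Trim27 libraries. Its partner subunit Gclm was 79.0 ± 5.28 and 70.1 ± 9.24 CPM (-0.17, adjusted p = 0.0423). That call, 1 of the 11 lower, was lost in 8 other settings and turned to a positive value under library size alone (0.13) and among genes of at least 6 log2 CPM (0.054). Gss, the enzyme of the second step, fell from 183 ± 7.73 to 43.3 ± 3.07 CPM (-2.08, SE 0.062, adjusted p = 6.15e-22). Gsr, which regenerates reduced glutathione for Gpx1 and Gpx4, rose from 69.6 ± 4.40 to 96.8 ± 8.80 CPM (0.47, adjusted p = 3.34e-07), but was 0.069 with the length trend removed (adjusted p = 0.351). Mgst3, a membrane-bound glutathione transferase and peroxidase, fell from 406 ± 14.8 to 107 ± 5.77 CPM (-1.92, adjusted p = 1.63e-22).

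NRF2, encoded by Nfe2l2, is the main activator of antioxidant genes and is held down by KEAP1 and by the repressor BACH1. Of 10 tested regulators in this pathway, 3 were called higher, 4 lower and 3 neither (median -0.11). Nfe2l2 fell from 69.3 ± 5.01 to 56.96 ± 4.86 CPM (-0.29, adjusted p = 0.000759), but was 0.016 under library size alone. Keap1 had 74.5 ± 4.33 and 70.6 ± 3.32 CPM (-0.077, adjusted p = 0.278). It was called a rise of 0.23 under library size alone and a fall of -0.55 with the length trend removed (adjusted p = 5.88e-09). Bach1 was low in both groups (1.97 ± 0.426 and 2.79 ± 1.23 CPM, adjusted p = 0.160) and was called a rise under library size alone (0.80, adjusted p = 0.028). The small MAF proteins, which pair with NRF2 or BACH1 on DNA, included Mafk, which rose from 1.23 ± 0.603 to 48.1 ± 3.77 CPM (5.30, SE 0.17, adjusted p = 2.61e-21), and Mafg, which rose from 24.1 ± 1.46 to 52.8 ± 3.34 CPM (1.13, adjusted p = 4.28e-13). The third of them, Maff, fell from 9.83 ± 1.09 to 6.83 ± 0.858 CPM (-0.52, adjusted p = 0.00513). Mafk had 44 counts over the GFP libraries and 3040 over the Trim27 libraries.

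Known NRF2 targets were called in both directions, with 7 rises and 8 falls among 18 tested (median -0.029). That is near the shares of all tested genes, 47.5% rises and 38% falls. Under library size alone the list had 12 rises and 3 falls. This list holds Prdx1 as well. Nqo1, the quinone reductase often used as a reporter of the pathway, had 21.4 ± 1.97 and 24.5 ± 2.19 CPM (0.20, adjusted p = 0.0881). It was called a rise with upper-quartile factors (0.24, adjusted p = 0.0345), under library size alone (0.50, adjusted p = 0.000116) and with the length trend fitted on abundant genes removed (0.41, adjusted p = 0.00095). G6pdx, the first enzyme of the pentose phosphate pathway and a source of NADPH, rose from 97.5 to 151 CPM (0.63, adjusted p = 2.58e-11). The biliverdin reductases fell, Blvrb from 1472 ± 55.8 to 632 ± 62.3 CPM (-1.22, adjusted p = 5.80e-17) and Blvra from 84.2 ± 3.34 to 40.8 ± 1.60 CPM (-1.05, adjusted p = 1.27e-14). Hmox1, which encodes heme oxygenase 1, was listed at 0 in all 8 libraries.

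Of 7 tested genes for NADPH oxidase subunits, which make superoxide in phagocytes, 2 rose, 4 fell and 1 did not pass. Ncf4 rose from 10.7 ± 2.04 to 39.5 ± 4.52 CPM (1.89, adjusted p = 1.09e-14) and Ncf1 fell from 65.4 ± 4.10 to 41.9 ± 3.38 CPM (-0.64, adjusted p = 6.83e-09), both being cytosolic subunits. Cyba, the small membrane subunit, fell from 445 ± 21.2 to 303 ± 24.8 CPM (-0.56, adjusted p = 1.27e-10), but was 0.13 with the length trend fitted on abundant genes removed. Cybb, the membrane subunit that carries the catalytic centre, had 9 counts over the GFP libraries and 29 over the Trim27 libraries and was not tested.

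Among FOXO factors, PGC-1 and sirtuins, which regulate Sod2 and Cat in other settings, 2 of 5 tested genes rose and 3 fell. The tested FOXO factors went in opposite directions. Foxo3 rose from 13.9 ± 2.75 to 37.1 ± 2.30 CPM (1.41, adjusted p = 2.88e-12), whereas Foxo1 fell without overlap of the groups (-2.61, adjusted p = 1.08e-13). Sirt3, a mitochondrial deacetylase that acts on the Sod2 protein, fell from 39.1 ± 1.93 to 16.3 ± 2.46 CPM (-1.26, adjusted p = 4.74e-12). The 15 tested genes of selenoproteins and their synthesis, the route on which Gpx1 and Gpx4 depend, counted 6 rises, 5 falls and 4 that did not pass (median 0.14). Sephs2, which makes the selenium donor, was called higher at 179 against 162 CPM (0.14, adjusted p = 0.0155), but was -0.16 with the length trend removed. Sepn1 (2.34, adjusted p = 8.60e-17) and Selt (2.002, adjusted p = 1.36e-15), which encode selenoproteins of the endoplasmic reticulum, rose. Eefsec, the elongation factor for selenocysteine, was among the 5 falls, from 193 ± 10.7 to 106 ± 4.33 CPM (-0.87, adjusted p = 7.92e-15).

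Repair of oxidised methionine was split between Msra, which fell from 106 ± 3.12 to 30.2 ± 0.491 CPM (-1.81, adjusted p = 2.83e-20), and Msrb2, which rose from 3.70 ± 1.10 to 27.1 ± 1.05 CPM (2.85, adjusted p = 3.04e-16). In the list of methionine sulfoxide reductases and peroxide repair, 3 of 5 tested genes rose and 2 fell (median 0.65). Of 16 genes for peroxisomes, the organelle that holds catalase, 6 were called higher, 7 lower and 3 neither (median 0.068).

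The promoters of the enzymes were searched for motifs of the factors named above, in RefSeq windows of the build GRCm38.p6 that run from 250 bases before to 50 bases after each annotated start. The letters TGACNNNGC, the core of the antioxidant response element read by NRF2 with a small MAF protein, were present on either strand in 12.39% of 32851 windows and in 17.03% of the 7785 tested genes with a window. Of the 10 enzymes, Prdx1 and Sod1 held a match. TGACTCA, the site of AP-1 and part of many BACH1 and MAF sites, was present in 5.202% of windows, and among the enzymes in Prdx1 only, with 2 matches, the second of which overlaps the match of TGACNNNGC. A match in 2 of 10 enzymes is near the share among tested genes. The stretches are shown because they hold these matches, plus strand, with the match in capitals.
Prdx1, chr4:116685349-116685388: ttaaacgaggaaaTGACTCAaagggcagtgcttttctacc
Prdx1, chr4:116685446-116685494: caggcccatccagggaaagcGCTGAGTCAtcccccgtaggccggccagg
Sod1, chr16:90220686-90220734: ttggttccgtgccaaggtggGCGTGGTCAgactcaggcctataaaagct
The first match lies 237 to 231 bases before the Prdx1 start. The second Prdx1 match and the Sod1 match read TGACTCAGC and TGACCACGC on the minus strand and lie 133 to 125 and 56 to 48 bases before the starts. The GC box GGGCGG was present in 35.66% of windows, in 70.37% of the tested genes and in all 10 enzymes. These matches describe letters in the windows and show no binding.

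The sorted cells carried the markers of the labelled cell type. For the marker lists too, the shares over all tested genes were 47.5% rises and 38% falls. Of 10 markers of granulocyte and monocyte progenitors, all 10 were tested, 1 rose and 8 fell. Their summed level was 1640 to 1747 CPM in the GFP libraries against 1179 to 1342 CPM in the Trim27 libraries. The 1 rise was Spi1, from 67.5 ± 3.31 to 120 ± 5.18 CPM. Erythroid markers were also present, without a single direction, since 4 of 8 rose and 4 fell, with sums of 1746 to 1795 and 1277 to 1453 CPM. The 5 megakaryocyte markers summed to 999 to 1093 and 765 to 805 CPM, with 1 rise and 4 falls. In bulk libraries fewer cells of a type and less RNA per cell cannot be told apart, so a fall of Prdx2 or Gpx1 and a lower sum of erythroid markers can reflect either; the part of these cells in the results was not tested.

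Markers of other cells were low. B cell markers summed to 64.0 to 153 CPM in the GFP libraries against 39.3 to 53.4 CPM in the Trim27 libraries, and mast cell, basophil and eosinophil markers to 99.1 to 102 and 104 to 121 CPM. Of the hepatocyte markers, Alb, Ttr, Apob, Ahsg, Fgb, Serpina1a and Hnf4a were at 0 in all libraries, and the list summed to 1.19 to 1.70 and 14.2 to 16.4 CPM. The other 2 rose, Afp from 52 counts over the GFP libraries to 586 over the Trim27 libraries and Apoa1 from 0 to 385. Of 9 macrophage markers, 6 were at 0 throughout, and the list summed to at most 1.19 CPM in the GFP libraries against 22.9 to 33.8 CPM in the Trim27 libraries. Its 2 tested genes rose, Emr1 from 0 counts over the GFP libraries to 678 over the Trim27 libraries and Slc40a1 from 2 to 1121. Of 8 endothelial and stromal markers, 5 were at 0 throughout. Of 5 T and NK cell markers, 2 were tested. Lck fell from 28.9 ± 1.09 to 2.16 ± 0.539 CPM and Gzmb rose from 23.0 ± 5.07 to 112 ± 2.50 CPM. The list summed to 46.1 to 56.8 CPM in the GFP libraries against 112 to 117 CPM in the Trim27 libraries.

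Trim27 itself had 171 to 190.5 CPM in the GFP libraries against 267 to 310 CPM in the Trim27 libraries, with no overlap. Totals ranged from 9257889 to 10747794 in the GFP libraries against 10551137 to 16366571 in the Trim27 libraries, and 11131 to 11850 and 12962 to 13283 genes had counts. Libraries of a group correlated at 0.985 to 0.993 across genes and libraries of different groups at 0.734 to 0.755. Low counts were mostly even, at 68.4% to 71.98% of the counts from 1 to 10 in the GFP libraries against 64.7% to 66.99% in the Trim27 libraries. Whether a pair of reads was counted once or as both reads was not given in the sources used here, so the counts may exceed the number of fragments, and counting error may be larger than the counts imply. The enzymes had between 988 (Prdx5) and 59210 (Gpx1) counts per library on average. The length and abundance trends, the number of genes with counts and the share of ribosomal protein genes all moved with the groups, and their part in the falls of the enzymes was not tested.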

How the data were processed

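RNA of 4 Trim27 and 4 GFP libraries was analysed from 1 table of raw counts that the authors deposited, with 1 line per gene symbol. Per the submitters' processing notes, bcl2fastq, HISAT2 and featureCounts were used with the build NCBIM37. Versions, annotation, strand setting and the treatment of multiply matched reads were not given in the sources used here. Per the labels' protocols, double-stranded DNA was made from polyadenylated RNA and libraries were made with a Nextera XT kit. The 1 line without a gene name held 0 counts and was left out. The table totals, 9257889 to 16366571 counts, set the precision.

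Counts were tested in R 4.3.3 with edgeR 4.0.16 (filterByExpr with minimum count 10 and minimum total 15, TMM, robust quasi-likelihood test, 2-sided, no covariate), fitted on all 8 libraries and adjusted over all genes tested. The procedure was tested on simulated data. Standard errors came from the log2 fold change and its F statistic, and 95% intervals are 1.96 SE either way. CPM was taken over library sizes scaled by TMM. Log2 ratios used counts plus 0.5. Transcript lengths, gene positions and coding sequences came from GENCODE M21 (GRCm38) and promoters from RefSeq (GRCm38.p6), matched by symbol. The authors' build differs, so positions describe the reference and not the alignments. For 48 tested genes no length was found.

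Named genes were the 10 enzymes, 20 genes of the wider lists whatever their p, the 2 other genes of each list with the smallest p at 4 mean log2 CPM or more, and the gene nearest to each enzyme. Of these, 4 are not reported here. Values of genes outside this rule (overlapping genes, copies, Sod3, Txnrd2, Txnrd3, Maff, Foxo1, Eefsec and cell markers) were given where a result touched them, chosen after their values were seen. The enzymes, lists and tests were chosen with earlier results of these data known.

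Alternatives were DESeq2 size factors, upper-quartile factors, library size alone, TMM without ribosomal protein genes, no filter, 10 CPM in 4 libraries, genes of at least 6 log2 CPM alone, the DESeq2 1.42.0 Wald test, limma-voom (limma 3.58.1), the replicate number as a block, removal of each library's loess trend on transcript length over all or over abundant genes, glmTreat at 1.5-fold, an adjusted p under 0.01, 5 counts added in the ratios, and each library left out. Adding the counts of copies to Sod1 and Prdx1 was chosen after seeing the data.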

Additional observations from a re-analysis of the deposited data

Results flagged for a closer look

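In 3 of 104 groups of 4 libraries, the gap between 1 library and the nearest other, as a part of the group's whole range, passed Dixon's critical value, which is 2.9% of groups where chance gives about 5%. For Txn1, Trim27 replicate 1 was at 436.3 CPM and the others of its group at 395.8 to 402 CPM. Without that library Txn1 was at -0.44 on the log2 scale. The log2 ratio of Prdx3 to Prdx5 was 2.14 in Trim27 replicate 1 and 1.89 to 1.92 in the other Trim27 libraries. Sesn1 was at 2.51 CPM in GFP replicate 1 and at 0.205 to 0.478 CPM in the other GFP libraries. No other group among the 20 of the enzymes' own levels stood out in this way.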

How the results depend on the processing

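Prdx2, Gpx1, Gpx4 and Sod1 kept their falls and Prdx3 its rise under all settings run for single genes other than glmTreat at 1.5-fold, which did not call Prdx3 (adjusted p = 0.917), and 1 library left out at a time changed none of these calls. The median over all genes was 0.14, and it was 0.44 under library size alone, -0.070 with each library's length trend removed, 0.36 with the trend fitted on abundant genes removed and -0.014 among genes of at least 6 log2 CPM. Rises made up 55.59% of all calls, and 66.87%, 47.57% and 64.6% under the first 3 of these settings, with 6274 rises and 3108 falls, 4401 and 4851, and 5931 and 3250. Prdx5, the enzyme with the fewest counts, had 988 per library on average, whereas Hmox1, Cybb and Sod3 had too few or none to be tested. The cause of the changes below was not tested, apart from glmTreat, which by its construction calls fewer genes.

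Prdx1 was -0.11 (adjusted p = 0.0764) with DESeq2 size factors, -0.088 (0.148) with upper-quartile factors, -0.11 (0.0551) without a filter, -0.12 (0.0565) with 10 CPM in 4 libraries and -0.11 (0.109) by the DESeq2 Wald test. Under library size alone, Prdx1 was 0.17, Txn1 -0.071, Sod2 0.24, Cat 0.26, Prdx6 0.13, Gclm 0.13, Nfe2l2 0.016 and Keap1 0.23. Among genes of at least 6 log2 CPM, Prdx1 was 0.089, Sod2 0.17, Cat 0.18, Prdx6 0.051, Gclm 0.054 and Keap1 0.15. With the length trend removed, Sod2 was -0.84, Cat -0.44, Txnrd1 -0.25, Srxn1 -0.17, Txnl1 -0.14, Sephs2 -0.16, Gsr 0.069 and Keap1 -0.55. With that of abundant genes removed, Prdx1 was 0.070, Prdx5 -0.11, Txn1 0.092, Prdx4 -0.023 and Cyba 0.13.

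Of the enzymes, 4 rose under library size alone, 3 among genes of at least 6 log2 CPM and 0 by glmTreat at 1.5-fold, and 4 fell with the trend fitted on abundant genes removed and by glmTreat. Over all genes, 3453 rose with 10 CPM in 4 libraries, 1122 rose and 1145 fell among genes of at least 6 log2 CPM, and 2452 fell by glmTreat.

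The counts of the wider lists moved as follows, as rises and falls where both are given. Other peroxiredoxin and thioredoxin genes had 3 and 3 among genes of at least 6 log2 CPM and 2 and 1 by glmTreat, 2 rises with the length trend removed and 3 falls under library size alone. Glutathione genes had 4 and 4, and 5 and 7 by the same settings, 6 falls with 10 CPM and 7 with the trend fitted on abundant genes removed. Dismutase maturation genes had 0 and 1 among genes of at least 6 log2 CPM, and 2 rises without a filter. NRF2 regulators had 5 and 1 under library size alone, 1 and 1 among genes of at least 6 log2 CPM, 2 falls with 10 CPM, 7 with the length trend removed and 0 by glmTreat. NRF2 targets had 12 and 3 under library size alone, 2 and 3 by glmTreat, 4 rises with the length trend removed, 2 falls among genes of at least 6 log2 CPM, 4 with 10 CPM and with the trend fitted on abundant genes removed, and 5 with DESeq2 size factors, upper-quartile factors, the DESeq2 Wald test and an adjusted p under 0.01. FOXO genes had 1 rise with 10 CPM. NADPH oxidase genes had 4 rises under library size alone, 1 with the length trend removed, 1 and 1 by glmTreat, and 1 fall among genes of at least 6 log2 CPM. Selenoprotein genes had 10 and 3 under library size alone, 3 falls among genes of at least 6 log2 CPM, 1 with the trend fitted on abundant genes removed and 2 by glmTreat. Methionine sulfoxide genes had 0 rises among genes of at least 6 log2 CPM, and 1 fall under library size alone, with either length trend removed and by glmTreat. Peroxisome genes had 1 and 2 among genes of at least 6 log2 CPM and 3 falls by glmTreat.

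Same-numbered libraries showed no shared deviation from their group means, with correlations of -0.035 to 0.021. Whether they were prepared together is not in the labels, and these correlations cannot tell. With the replicate block, Prdx1 was -0.14 (adjusted p = 0.0695) and NRF2 targets had 5 falls. The exact paired permutation test of the ratios cannot go below p = 0.125 (0.15 adjusted), so with the replicate block Sod1/Sod2 (-0.82), Gpx1/Gpx4 (-0.070), Prdx1/Prdx2 (0.79), Prdx3/Prdx5 (0.98) and Cat/Gpx1 (0.70) were not called; it changed no other call among the enzymes.

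With 1 library left out at a time, Prdx1 ranged from -0.23 to -0.10, Cat from -0.11 to -0.023, the falls among the enzymes from 6 to 8, rises among dismutase maturation genes from 1 to 2, falls among NRF2 targets from 5 to 8 (5 without GFP replicate 3) and Gpx1/Gpx4 from -0.086 to -0.061. The last lost its call without any 1 of the GFP libraries, at an exact permutation p of 0.0571 (0.0686 adjusted). Gclm lost its call without GFP replicate 2 or 3 or Trim27 replicate 2, 3 or 4, and Sephs2 without Trim27 replicate 2, 3 or 4.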
